A study of Homo sapiens with 3 samples.

Results

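Metallothioneins are small, cysteine-rich proteins that bind zinc and copper and take up toxic metals such as cadmium. MTF1 is the transcription factor that senses free zinc and switches metallothionein genes on through short promoter motifs called metal response elements, and SLC30A1 (ZnT1) exports zinc across the plasma membrane and is another of its targets. High metallothionein levels have long been linked to tolerance of cisplatin in tumour cells. The genes described here are 6 metallothioneins (MT1E, MT1F, MT1G, MT1M, MT1X and MT2A), MTF1 and SLC30A1, taken by symbol, 8 of the 58735 genes in the count matrices.

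The cells were FaDu, an established line from a human hypopharyngeal squamous carcinoma, and a FaDu subline that resists TPF, a mixture of 3 drugs (paclitaxel, cisplatin and 5-fluorouracil). There were 3 single-cell libraries, 1 per group: the first from the resistant subline under TPF plus cinobufotalin (resistant TPF cinobufotalin), the next from that subline under TPF alone (resistant TPF) and the last from cells labelled FaDu under cinobufotalin alone (FaDu cinobufotalin). Cinobufotalin is a bufadienolide, a steroid of toad venom. Doses, times and the number of clones in the resistant subline are not stated in the labels, and FaDu cells without drug were not analysed here. After filtering, 7525, 4862 and 6123 cells were left in the order above, with 134802289, 135176387 and 165847771 UMIs (unique molecular identifiers, each marking 1 captured transcript) and a median of 17867, 27920.5 and 24440 UMIs per cell. Between pairs of libraries 9 to 13 cell barcodes were shared. All 8 squamous epithelial markers were measured above 5 CPM (UMIs scaled to the same library total), with a summed level of 3548, 4623 and 6254 CPM, and the part of this difference in the results was not tested. None of the 16 fibroblast, immune and endothelial markers reached a mean of 5 CPM, and these lists summed to between 1.99 and 5.30 CPM, with COL1A2 and LUM at 0 in all libraries. HBA1, an erythroid marker, had 9.53, 12.1 and 5.71 CPM. Because each group had 1 library, the groups could not be tested against each other. Every interval is a 95% interval that covers counting error only, and a difference between libraries cannot be told apart from one between treatments. Both comparisons with FaDu cinobufotalin differ in cell line and in drugs, since TPF was given to the resistant cells alone.

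The 6 metallothionein members lie in a single cluster on chromosome 16 that spans 119 kb from MT4 to MT1X (GRCh38, GENCODE 29). MT2A is at chr16:56608199-56609497, MT1E at chr16:56625475-56627112, MT1M at chr16:56632233-56633986, MT1F at chr16:56657694-56660698 and MT1X at chr16:56682424-56684196, all on the plus strand, while MT1G at chr16:56666731-56668065 is on the minus strand. MTF1 (chr1:37809567-37859620) and SLC30A1 (chr1:211571568-211578742) are both on the minus strand of chromosome 1. Promoters of 4 of the 8 members, MT1X, MT2A, MTF1 and SLC30A1, were in the RefSeq table (GRCh38.p14), and the 250 bases before each RefSeq start were searched on both strands for the metal response element core, TGCACNC or TGCGCNC. MT2A held 7 matches, MT1X 4, SLC30A1 1 and MTF1 0. Of 35116 promoters of the same length, 24.8% held at least 1 match, 0.370% at least 4 and 0.0313% at least 7. The stretches below show where matches in MT1X, MT2A and SLC30A1 lie, with the matches in capitals. Positions are counted back from -1, the last base before the start. In MT1X the 4 matches lie between -150 and -47 (chr16:56682220-56682423, plus strand, positions -250 to -47). In MT2A, whose whole window is within the first exon of a longer GENCODE transcript, only short stretches around 3 of the 7 matches are given (chr16:56608416-56608444 and chr16:56608480-56608509, plus strand). In SLC30A1 the single match is at -49 to -43, on the other strand (chr1:211579162-211579261, minus strand, positions -100 to -1). The RefSeq start of SLC30A1 lies upstream of the GENCODE start given above, and the bases between them were not searched.

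MT1X: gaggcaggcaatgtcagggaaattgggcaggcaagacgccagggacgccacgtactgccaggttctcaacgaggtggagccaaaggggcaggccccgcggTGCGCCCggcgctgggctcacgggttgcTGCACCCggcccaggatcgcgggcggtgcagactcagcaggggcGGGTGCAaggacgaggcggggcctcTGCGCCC
MT2A from -168: GTGTGCAgagccgggTGCGCCCggcccag
MT2A from -104: tgactcagcgcggggcGTGTGCAggcagcg
SLC30A1: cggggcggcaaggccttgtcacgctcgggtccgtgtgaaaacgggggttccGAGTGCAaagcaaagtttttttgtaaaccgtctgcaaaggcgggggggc

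The second MT2A stretch opens with a match to the AP-1 site TGANTCA, a motif bound by the JUN and FOS factors, which 6.57% of promoters held at least once. Neither MT1X, MTF1 nor SLC30A1 had a match to it. The same MT2A bases also match the antioxidant response element core TGACNNNGC, the motif bound by NRF2, so the match to AP-1 overlaps it. MT1X and SLC30A1 had 1 match each to that core on the other strand, and 10.9% of promoters held at least 1. A TATAAA box was found in MT2A at -29 and in MT1X at -30, and in neither MTF1 nor SLC30A1, and 10.7% of promoters held at least 1. These are matches of letters, not evidence that a factor was bound.

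MT2A, a metallothionein expressed in nearly all human tissues, had 1126414 UMIs (8356 CPM) in the resistant TPF cinobufotalin library, 964064 UMIs (7132 CPM) in the resistant TPF library and 1909781 UMIs (11515 CPM) in the FaDu cinobufotalin library. It ranked 7, 8 and 5 among all genes in these libraries, and 5, 5 and 4 with mitochondrial and ribosomal protein genes left out. MT1E had 548, 454 and 881 CPM in the same order, and MT1X had 432, 294 and 397 CPM. Both are inducible members of the MT1 group. FaDu cinobufotalin was highest for MT2A and MT1E, resistant TPF cinobufotalin was highest for MT1X, and resistant TPF was lowest for all 3. MT1F, another MT1 isoform, had 34.2, 32.2 and 37.6 CPM, also highest in FaDu cinobufotalin. MT1G had 0, 2 and 2 UMIs and MT1M had 1, 2 and 1 UMIs, at or under the floor of 3 UMIs per library (0.0181 to 0.0223 CPM), so no fold is given for either. The 6 metallothioneins summed to 9370, 7912 and 12831 CPM, or 0.937%, 0.791% and 1.28% of all UMIs.

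The regulator and the exporter were far lower and closer together between libraries. MTF1 had 10.3 CPM (9.75 to 10.8) in the resistant TPF cinobufotalin library, 10.4 CPM (9.91 to 11.0) in the resistant TPF library and 8.95 CPM (8.50 to 9.42) in the FaDu cinobufotalin library. SLC30A1 had 13.3 CPM (12.7 to 13.9), 12.8 CPM (12.2 to 13.4) and 12.0 CPM (11.4 to 12.5) in that order. The intervals of both genes overlapped between the resistant libraries, and that of SLC30A1 in the resistant TPF library also overlapped the FaDu one. Within every library the order of levels was MT2A, MT1E, MT1X, MT1F, SLC30A1, MTF1, with no intervals of neighbours overlapping. These levels are UMIs taken at one end of each transcript, so they were not divided by length.

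**Figure D1:**
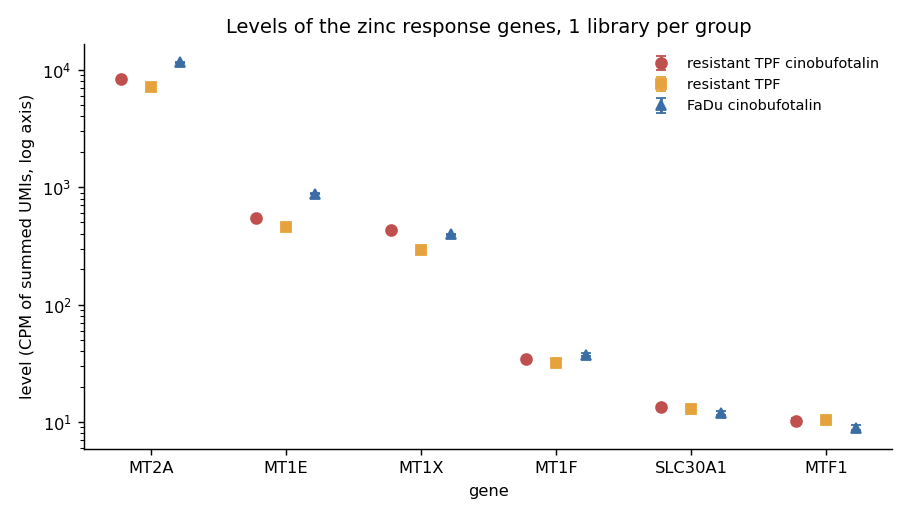
Level of the 6 members with a mean of at least 5 CPM, as CPM of summed UMIs on a log axis, with 1 point per library and 95% Poisson intervals as bars, mostly smaller than the symbols. MT2A, at 7132 to 11515 CPM, lies far above MT1E and MT1X, and the points of SLC30A1 and MTF1 lie between 8.95 and 13.3 CPM.

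Of the other metallothionein genes in the cluster, MT3, the brain isoform also known as growth inhibitory factor, was the only one above 1 CPM. It had 380 UMIs (2.82 CPM) in the resistant TPF cinobufotalin library, 287 UMIs (2.12 CPM) in the resistant TPF library and 225 UMIs (1.36 CPM) in the FaDu cinobufotalin library. Its order was thus not that of MT2A and MT1E: it was lowest in FaDu cinobufotalin, with a log2 ratio of 1.06 for resistant TPF cinobufotalin over FaDu cinobufotalin and 0.65 for resistant TPF over FaDu cinobufotalin. With TMM factors, which scale libraries by a trimmed mean of the ratios of genes, these were 0.53 (0.29 to 0.78) and 0.08 (-0.18 to 0.34), the second interval then holding 0. MT1DP, a transcribed pseudogene, had 38, 29 and 68 UMIs, highest in FaDu cinobufotalin like MT2A and MT1E. MT1B had 11, 10 and 16 UMIs and MT1L, another pseudogene, 8, 6 and 4. MT4, the isoform of stratified epithelium, had 3, 5 and 2 UMIs. MT1A, MT1H and MT1JP had at most 1 UMI in any library, and MT1CP had 0 in all 3, as did MT1HL1, which lies outside the cluster, on chromosome 1. Reads could be mixed between near-identical copies only where their ends match. No window of 150 bases in the last 400 bases of the MT1E, MT1F, MT1G, MT1M or MT2A transcripts recurred in a transcript of another gene. For MT1X 9.56% of windows did, all in AC026461.1, a gene that overlaps it on the same strand and had 51, 69 and 13 UMIs. With windows of 90 bases the share was 28.1%, in AC026461.1 and MT1G, and 0.992% of MT1G windows recurred in MT1X.

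**Figure D2:**
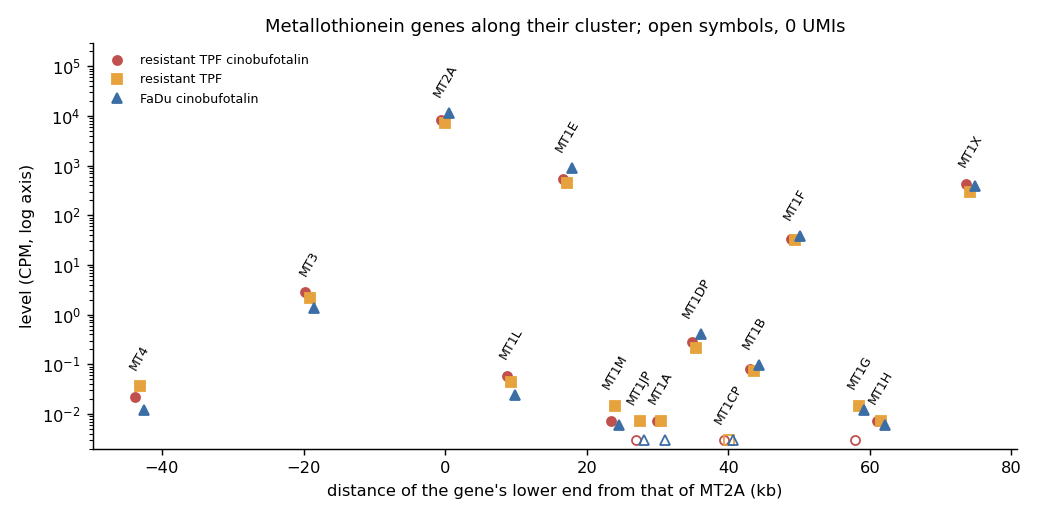
Level of the 15 metallothionein genes of the cluster (CPM on a log axis) against the distance of each gene's lower end from that of MT2A (kb), with 1 symbol per library and open symbols at the bottom for 0 UMIs. MT2A, MT1E, MT1F and MT1X exceed 30 CPM, MT3 lies between 1.36 and 2.82 CPM, and the genes between MT1M and MT1H other than MT1F stay below 1 CPM.

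Adding cinobufotalin to TPF was compared first, within the resistant subline. The 4 abundant metallothioneins were all higher in the resistant TPF cinobufotalin library than in the resistant TPF library, MT1X by 1.47-fold, MT1E by 1.21-fold, MT2A by 1.17-fold and MT1F by 1.06-fold, though MT1F stood at a log2 ratio of -0.02 in cells thinned to 5000 UMIs. The log2 ratio of the sum was 0.24 (0.240 to 0.248). MT1G and MT1M are not counted here, and none of the 6 members with a mean of at least 5 CPM reached 1.5-fold, where 0.0775% of the 10317 genes at that level passed it upward and 0.262% downward. MT1X, at a log2 ratio of 0.55 (0.53 to 0.57), was above 99.9% of those genes and above 99.7% of the 759 genes with a mean of at least 200 CPM. With TMM scaling its log2 ratio was 0.60, and 0.63 in cells called G1, so that it passed 1.5-fold there, as did 0.116% and 0.94% of the 10317 genes upward. MT2A was above 87.2% and MT1E above 92.1% of the genes with at least 200 CPM. MTF1 had a log2 ratio of -0.02 (-0.13 to 0.09) and SLC30A1 one of 0.05 (-0.04 to 0.15), both intervals holding 0.

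**Figure D3:**
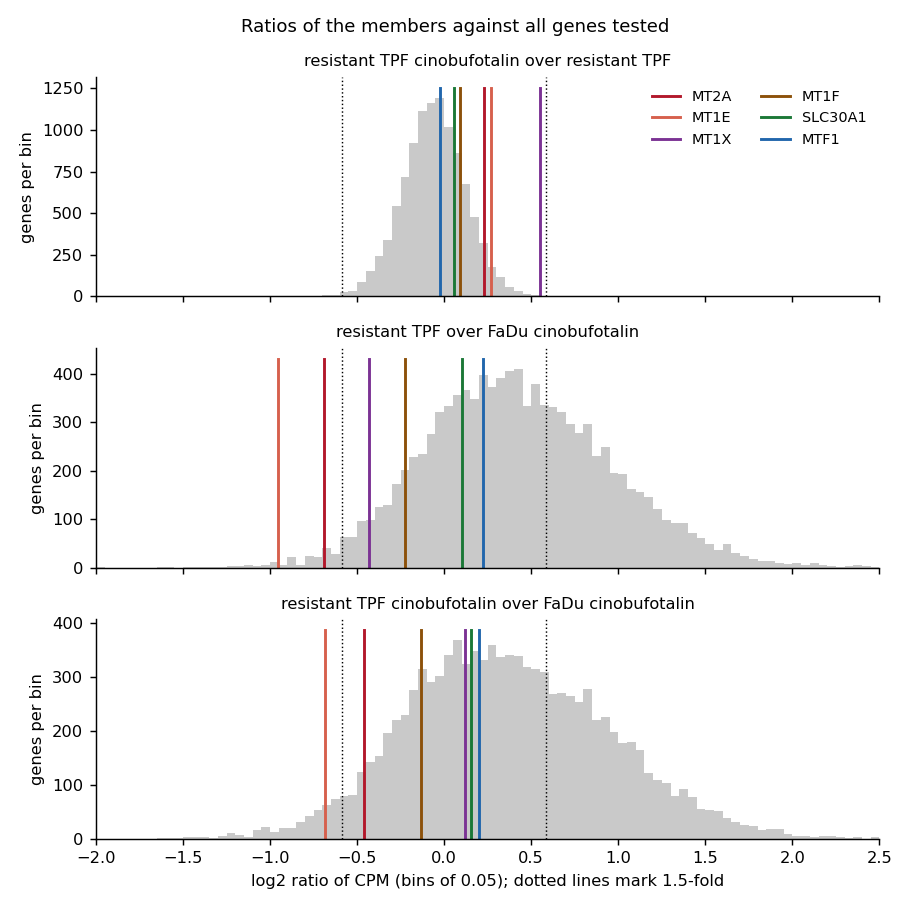
Log2 ratio of CPM for each of the 6 members (coloured lines) over the histogram of all 10317 genes tested (bins of 0.05), for the 3 pairs of libraries, with dotted lines at 1.5-fold. MT1X stands at the right edge for resistant TPF cinobufotalin over resistant TPF, and MT1E and MT2A stand left of most genes in both pairs against FaDu cinobufotalin.

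The resistant libraries were then set against FaDu cinobufotalin. In the resistant TPF library MT1E was lower by 1.94-fold and MT2A by 1.61-fold, with log2 ratios of -0.96 (-0.97 to -0.94) and -0.69, and these were the 2 of 6 members at least 1.5-fold lower. Over all genes tested 1.92% were at least 1.5-fold lower and 36.7% at least 1.5-fold higher, and among the 759 genes with at least 200 CPM 5.93% were at least 1.5-fold lower. MT1X was lower by 1.35-fold and MT1F by 1.17-fold, under that limit. MTF1 and SLC30A1 had log2 ratios of 0.22 (0.12 to 0.33) and 0.10 (0.01 to 0.20).

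In the resistant TPF cinobufotalin library, set against FaDu cinobufotalin, MT1E alone of the 6 was at least 1.5-fold lower, by 1.61-fold, where 4.08% of all genes tested were at least 1.5-fold lower and 34.4% at least 1.5-fold higher. Among the 759 genes with at least 200 CPM 8.3% were that much lower. MT2A was lower by 1.38-fold, MT1F had a log2 ratio of -0.14 and MT1X one of 0.12. MTF1 had a log2 ratio of 0.20 and SLC30A1 one of 0.16. No member was at least 2-fold lower in either pair with FaDu cinobufotalin, where 0.291% of all genes tested were for resistant TPF and 0.785% for resistant TPF cinobufotalin. The 3 pairs share libraries, so that any of them follows from the other two.

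The scaling bears on both comparisons with FaDu cinobufotalin. The median log2 ratio of all genes tested was 0.40 for resistant TPF and 0.34 for resistant TPF cinobufotalin over FaDu cinobufotalin, against -0.17 and -0.18 with TMM factors, and -0.06 against -0.01 between the resistant libraries. The median depends on the genes used. Without TMM factors it was -0.06, -0.02 and 0.02 in these pairs over the 759 genes with at least 200 CPM, which include MT2A, MT1E and MT1X. The metallothionein sum lay closer to those medians than to the medians of all genes tested. Relative to the median of all genes tested, which takes the scaling out, the metallothionein sum was at -1.10, -0.79 and 0.30 in these pairs. MT1E was at -1.36, -1.03 and 0.33 and MT1X at -0.83, -0.22 and 0.61 in the same order. MTF1 was at -0.18, -0.14 and 0.04 and SLC30A1 at -0.30, -0.19 and 0.11. MTF1 and SLC30A1 against FaDu cinobufotalin, and MT1X in resistant TPF cinobufotalin against FaDu cinobufotalin, thus changed sign with the scaling: their log2 ratios with TMM factors were between -0.47 and -0.32. No such change of sign was seen for MT2A or MT1E. With TMM factors 1 member (MT1X) was at least 1.5-fold higher in resistant TPF cinobufotalin than in resistant TPF, as were 0.116% of genes. Against FaDu cinobufotalin 4 members were then at least 1.5-fold lower in resistant TPF and 3 in resistant TPF cinobufotalin, as were 20.2% and 23.6% of genes.

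The makeup of the metallothionein pool does not depend on any scaling. MT2A made up 89.2% of the sum in the resistant TPF cinobufotalin library, 90.1% in the resistant TPF library and 89.7% in the FaDu cinobufotalin library. For each 100 MT2A UMIs there were 5.17 MT1X UMIs (5.12 to 5.21), 4.13 (4.08 to 4.17) and 3.45 (3.42 to 3.47), so that MT1X was most prominent in resistant TPF cinobufotalin and least in FaDu cinobufotalin. The order of MT1E was different, with 6.56, 6.37 and 7.65 UMIs per 100 MT2A UMIs, highest in FaDu cinobufotalin. MT1F stood at 0.410, 0.451 and 0.326.

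Barcodes kept as cells carried metallothionein RNA almost without exception. Those with under 2% mitochondrial UMIs numbered 1053 in resistant TPF cinobufotalin, 580 in resistant TPF and 1606 in FaDu cinobufotalin. In that order they held 12691, 8945 and 14622 CPM of metallothioneins, against 9370, 7912 and 12831 CPM in all kept cells. Whether they were whole cells was not tested. When each cell was thinned to 5000 UMIs, 6954, 4657 and 5979 cells could be used and 571, 205 and 144 shallower cells were left out. The median cell then held 37 metallothionein UMIs in the resistant TPF cinobufotalin library (10th to 90th percentile 8 to 97), 30 in the resistant TPF library (6 to 81) and 54 in the FaDu cinobufotalin library (17 to 122). No metallothionein UMI was found in 46, 34 and 6 cells. The distributions overlapped widely: 32.9% (31.8 to 34.0, Clopper-Pearson) of resistant TPF cinobufotalin cells and 24.6% (23.4 to 25.9) of resistant TPF cells were above the FaDu cinobufotalin median. Spread between cells was far beyond counting error, with a variance of 27.8, 25.7 and 30.7 times the mean. The top 10% of cells held 26.8%, 28.1% and 25.3% of all metallothionein UMIs.

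**Figure D4:**
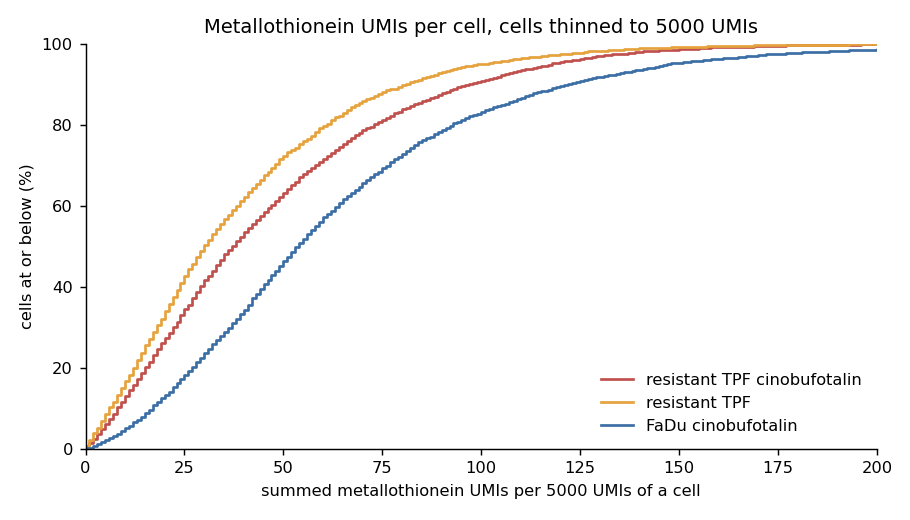
Share of cells (%) at or below each number of summed metallothionein UMIs per 5000 UMIs of a cell, with 1 line per library and the axis ended at 200 UMIs. The line of resistant TPF cinobufotalin, with a median of 37, lies between those of resistant TPF (median 30) and FaDu cinobufotalin (median 54), and all 3 overlap.

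Counted as cells with at least 1 UMI among 5000, MT2A was detected in 98.9% of resistant TPF cinobufotalin cells, 98.8% of resistant TPF cells and 99.8% of FaDu cinobufotalin cells. MT1E was detected in 80.3% (79.3 to 81.2), 76.3% (75.0 to 77.5) and 91.0% (90.2 to 91.7), lowest in resistant TPF. MT1X was detected in 78.5% (77.6 to 79.5), 67.3% (65.9 to 68.6) and 77.4% (76.3 to 78.4), again lowest in resistant TPF and close together in the other libraries. Without thinning the shares were 91.4%, 92.9% and 97.5% for MT1E and 91.9%, 92.9% and 96.2% for MT1X, at different depths. MT1F was in 14.5%, 14.2% and 16.5% of thinned cells, MTF1 in 5.19%, 5.05% and 4.83% and SLC30A1 in 6.61%, 6.31% and 6.51%, against 36.8%, 47.8% and 53.6%, 16.8%, 24.7% and 21.4%, and 19.9%, 27.8% and 26.0% of all kept cells. These 3 genes are near 1 UMI per cell or below, so no difference is read from their shares. MT1G and MT1M were in 0 thinned cells of any library, which by the floor of 3 counts allows a share of up to 0.0431%, 0.0644% and 0.0502% of cells with a UMI. Free RNA was not separated from that of the cells, since no cell type that should lack these genes is present, and the part it plays was not tested.

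Across cells of a library the abundant metallothioneins went together. As a description over 6954, 4657 and 5979 thinned cells that share a library and 1 depth, Pearson's r of MT2A with MT1E was 0.53, 0.49 and 0.57, of MT2A with MT1X 0.39, 0.36 and 0.36, and of MT1E with MT1X 0.34, 0.30 and 0.31. For MT2A with MT1F, at few UMIs per cell, it was 0.16, 0.17 and 0.13. MTF1 was between -0.06 and -0.02 with MT2A and SLC30A1 between -0.03 and 0.00, in counts too sparse to show more. Of 5696 other genes with a mean of at least 20 CPM, the 8 most like the metallothionein sum over cells, by the lowest r of the 3 libraries, were TMSB10, IFITM3, RPL41, IFI27, S100A2, RPL12, HSBP1 and RPL39. TMSB10, which encodes an actin-binding thymosin, had an r of 0.52, 0.44 and 0.30. IFITM3, an interferon-induced membrane protein, had 0.40, 0.30 and 0.27, and S100A2, a calcium-binding protein of squamous epithelium, 0.36, 0.30 and 0.22. All 8 are abundant, from 790 CPM for HSBP1 in resistant TPF to 16786 CPM for IFI27 in FaDu cinobufotalin. At the other end, picked after the values were seen, stood MALAT1, a nuclear long noncoding RNA, with an r of -0.39, -0.28 and -0.25.

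MALAT1 itself differed between the libraries, at a median of 0.731%, 0.795% and 0.0892% of a cell's UMIs, and so did ribosomal protein genes, at 14.0%, 13.5% and 18.5%. Cells were therefore grouped by MALAT1 share, among cells with 2% to 8% mitochondrial and at least 10000 UMIs. Below 0.05% MALAT1 the metallothioneins summed to 12290, 11093 and 13077 CPM in resistant TPF cinobufotalin, resistant TPF and FaDu cinobufotalin cells. From 0.05% to 0.3% they summed to 10244, 8816 and 12387 CPM, from 0.3% to 1% to 8867, 8031 and 11611 CPM, and from 1% to 2% to 8571, 7677 and 10340 CPM. The sum was lower at each step of MALAT1 in every library, and the order of libraries was the same in all 4 bins. In that order of libraries the bins held uneven numbers of cells: 233, 75 and 1158 below 0.05% MALAT1, and 1468, 1082 and 301 from 1% to 2%. Cells from 0.3% to 1% MALAT1 gave log2 ratios of the sum of 0.14 for resistant TPF cinobufotalin over resistant TPF, -0.53 for resistant TPF over FaDu cinobufotalin and -0.39 for resistant TPF cinobufotalin over FaDu cinobufotalin. At this share MT1E alone was 1.5-fold lower in resistant TPF than in FaDu cinobufotalin, at a log2 ratio of -0.68, with MT2A at -0.53, and no member was 1.5-fold apart between resistant TPF cinobufotalin and FaDu cinobufotalin. In the same cells 2.75% and 4.44% of all genes were that much lower in these pairs.

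**Figure D5:**
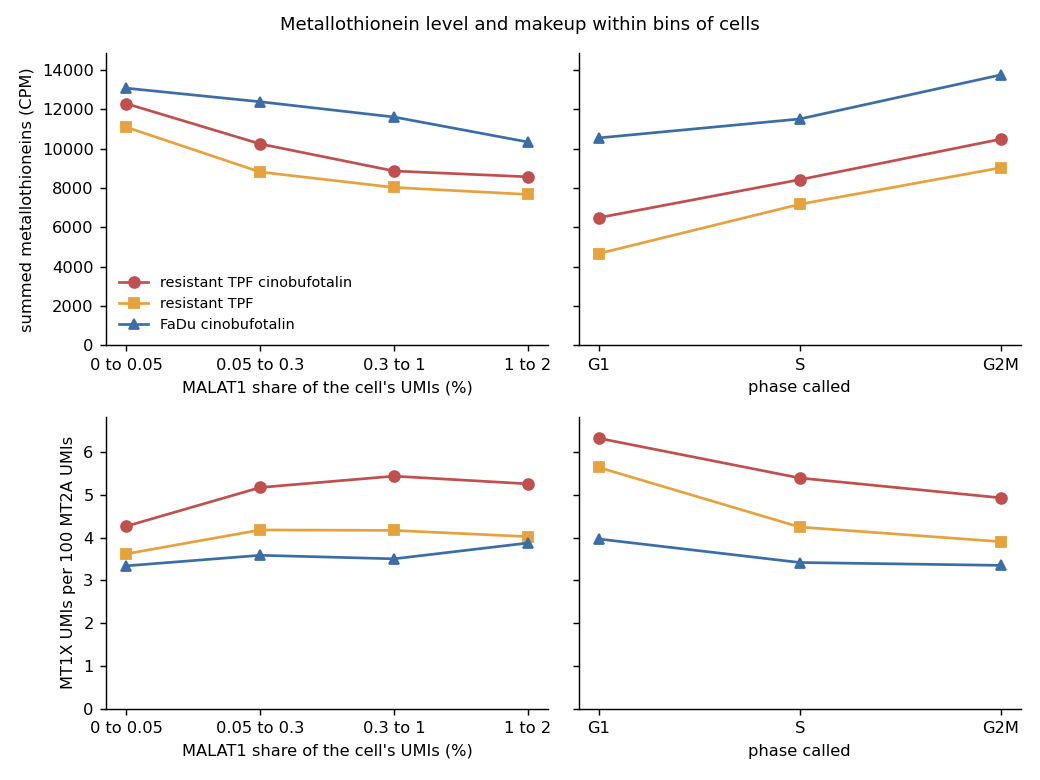
Summed metallothionein level (CPM, upper row) and MT1X UMIs per 100 MT2A UMIs (lower row) in cells grouped by the MALAT1 share of their UMIs (%, left) and by called phase (right), with 1 line per library and axes from 0. FaDu cinobufotalin lies highest in the upper row and resistant TPF cinobufotalin highest in the lower row in each of the 7 groups of cells.

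Phases were called from S and G2M gene scores, and they are ranges rather than types, with 38.5%, 35.2% and 42.1% of cells within 0.05 of a boundary. In all 3 libraries the summed level was lowest in cells called G1 and highest in cells called G2M. In G1 it was 6496 CPM in resistant TPF cinobufotalin, 4672 CPM in resistant TPF and 10550 CPM in FaDu cinobufotalin cells (797, 613 and 1072 cells). In S it was 8428, 7178 and 11512 CPM (2388, 1551 and 1112 cells), and in G2M 10483, 9027 and 13750 CPM (3769, 2493 and 3795 cells). FaDu cinobufotalin thus had the most cells called G2M. Yet the G2M genes had a median log2 ratio of 0.71 for resistant TPF over FaDu cinobufotalin, against 0.40 over all genes tested. How far a called phase means the same in each library was not tested. The resistant libraries were thus farther below FaDu cinobufotalin in G1 than in G2M, with log2 ratios of the sum of -0.70 against -0.39 for resistant TPF cinobufotalin and -1.18 against -0.61 for resistant TPF. In cells called G1 3 members were at least 1.5-fold lower in resistant TPF and 2 in resistant TPF cinobufotalin than in FaDu cinobufotalin, as were 4.1% and 4.81% of all genes. Median MALAT1 was 1.58%, 1.95% and 0.134% in cells called G1 and 0.649%, 0.708% and 0.0652% in cells called G2M, and its part in the phase difference was not tested.

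Over 15 bins of cells in all, by MALAT1 share, mitochondrial share, UMI count and phase, the metallothionein sum was lower in resistant TPF than in FaDu cinobufotalin in 15 of 15. It was higher in resistant TPF cinobufotalin than in resistant TPF in 14, the exception being cells with 10% to 20% mitochondrial UMIs, at 5731 and 6576 CPM. It was lower in resistant TPF cinobufotalin than in FaDu cinobufotalin in 14, the exception being cells under 10000 UMIs, at 9407 and 9164 CPM. MT1X and MT1E were each higher in resistant TPF cinobufotalin than in resistant TPF in 15 of 15. MT1X per MT2A was higher in resistant TPF cinobufotalin than in FaDu cinobufotalin in 15 of 15 and than in resistant TPF in 14. MTF1 and SLC30A1 kept no such order, MTF1 being higher in resistant TPF cinobufotalin than in resistant TPF in 5 bins and SLC30A1 in 10. The bins overlap in cells and are not replicates. Barcodes left out by the filter had 1808, 1207 and 1652 CPM of metallothioneins, at a median of 65.2%, 76.9% and 85.5% mitochondrial UMIs.

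Beyond SLC30A1, the list held other zinc transporters of the ZnT family, of which 4 of 9 had a mean of at least 5 CPM. None was 1.5-fold apart between the resistant libraries, where their median log2 ratio was 0.03 and that of all genes -0.06. SLC30A7, which loads zinc into the Golgi, had 31.8 CPM in the resistant TPF cinobufotalin library, 28.4 CPM in the resistant TPF library and 17.8 CPM in the FaDu cinobufotalin library. SLC30A9, a transporter of mitochondria, had 19.7, 21.4 and 13.7 CPM, SLC30A5 had 30.8, 33.2 and 23.6 CPM and SLC30A6 11.3, 9.79 and 7.76 CPM. Against FaDu cinobufotalin 2 of the 4 were 1.5-fold higher in resistant TPF (SLC30A7 and SLC30A9) and 1 in resistant TPF cinobufotalin (SLC30A7), where 36.7% and 34.4% of all genes were that much higher. With TMM factors 0 were higher in either, where 9.53% and 10.9% of all genes were, and their median log2 ratios were -0.0015 and 0.01.

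The ZIP transporters bring zinc into the cytosol, and 11 of 14 had a mean of at least 5 CPM. Between the resistant libraries none was 1.5-fold apart and their median log2 ratio was -0.08, with SLC39A13 at -0.24, SLC39A7 and SLC39A3 at -0.15 and SLC39A4 at 0.12. Against FaDu cinobufotalin 6 of 11 were at least 1.5-fold higher in each resistant library and 0 lower, where 36.7% and 34.4% of all genes were that much higher, but with TMM factors 0 were higher and 3 and 2 lower, as were 20.2% and 23.6% of all genes. Their median log2 ratio was 0.69 in resistant TPF and 0.61 in resistant TPF cinobufotalin, against 0.40 and 0.34 over all genes, and 0.12 and 0.09 with TMM factors, against -0.17 and -0.18. SLC39A8, which also carries manganese and cadmium, had 14.2 CPM in the resistant TPF cinobufotalin library, 14.1 CPM in the resistant TPF library and 6.83 CPM in the FaDu cinobufotalin library. SLC39A9 had 51.0, 49.3 and 25.6 CPM, SLC39A11 20.4, 20.7 and 10.5 CPM and SLC39A6 22.4, 24.0 and 12.4 CPM. SLC39A4, the importer of intestinal zinc uptake and the most abundant ZIP here, had 245, 226 and 232 CPM and log2 ratios of 0.12 for resistant TPF cinobufotalin over resistant TPF, -0.04 for resistant TPF over FaDu cinobufotalin and 0.08 for resistant TPF cinobufotalin over FaDu cinobufotalin.

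Metallothioneins also bind copper, and 7 of 9 listed copper genes had a mean of at least 5 CPM. None was 1.5-fold apart in any of the 3 pairs, while with TMM factors 2 were lower in resistant TPF and 1 in resistant TPF cinobufotalin than in FaDu cinobufotalin, as were 20.2% and 23.6% of all genes. For resistant TPF cinobufotalin over resistant TPF the median log2 ratio of the 7 was -0.05, against -0.06 over all genes. With TMM factors 3 of 7 were above 0 there. COX17 and ATOX1, copper chaperones of mitochondria and of the secretory pathway, had the highest log2 ratios in that pair, 0.35 and 0.26, in the direction of MT1X. CCS, SLC31A1, SLC31A2 and COMMD1 were lower in resistant TPF cinobufotalin than in resistant TPF, COMMD1 by little, at 65.3 against 67.8 CPM. COX17 had 443, 348 and 352 CPM and ATOX1 438, 366 and 406 CPM. CCS, the chaperone of SOD1, had 36.0, 42.8 and 53.1 CPM, and SOD1 itself 431, 427 and 318 CPM. SLC31A1, the plasma membrane copper importer, had 14.4, 15.4 and 10.8 CPM, SLC31A2 6.76, 7.70 and 5.57 CPM and COMMD1 65.3, 67.8 and 51.5 CPM.

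Other stress regulators reach metallothionein promoters too. Of the NRF2 targets 11 of 12 had a mean of at least 5 CPM, and 0 were 1.5-fold apart between the resistant libraries, with a median log2 ratio of -0.12. Against FaDu cinobufotalin 4 were 1.5-fold higher in resistant TPF and 3 in resistant TPF cinobufotalin, and 0 were lower, where 36.7% and 34.4% of all genes were that much higher. With TMM factors 0 were higher and 4 lower in each, where 20.2% and 23.6% of all genes were that much lower. HMOX1, heme oxygenase, had 58.3 CPM in the resistant TPF cinobufotalin library, 70.4 CPM in the resistant TPF library and 31.8 CPM in the FaDu cinobufotalin library. GCLC, of glutathione synthesis, had 61.3, 61.5 and 32.6 CPM, GCLM 108, 121 and 77.0 CPM and OSGIN1 5.75, 7.37 and 3.74 CPM. FTH1, the ferritin heavy chain, had 33380, 36386 and 48119 CPM, highest in FaDu cinobufotalin as MT2A was, but lower in resistant TPF cinobufotalin than in resistant TPF, where MT2A was higher.

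The heat shock list, 11 genes, had a median log2 ratio of -0.12 for resistant TPF cinobufotalin over resistant TPF, and none was 1.5-fold apart. The median of all genes tested was -0.06 in that pair. There DNAJA1, HSPA8, HSPA1A and DNAJB1 were at -0.33, -0.32, -0.31 and -0.28, opposite in sign to the metallothioneins, while HSPE1 had the highest ratio of the list. With TMM factors 3 of 11 were above 0 in that pair, and the median was -0.07, against -0.01 over all genes. Against FaDu cinobufotalin 3 were 1.5-fold higher in resistant TPF and 2 in resistant TPF cinobufotalin, HSPH1 and HSPD1 in both, at log2 ratios of 1.21 and 1.02 in resistant TPF. Of all genes 36.7% and 34.4% were that much higher. With TMM factors 1 was higher and 3 lower in resistant TPF, where 9.53% of all genes were higher and 20.2% lower. In resistant TPF cinobufotalin 0 were then higher and 3 lower, where 10.9% of all genes were higher and 23.6% lower. Of the glucocorticoid-responsive genes 6 of 8 had a mean of at least 5 CPM, with a median of -0.13 between the resistant libraries. FKBP5, a chaperone of the glucocorticoid receptor, had 27.6, 28.7 and 11.2 CPM, NR3C1, the receptor itself, 101, 97.1 and 62.1 CPM and DUSP1 193, 236 and 147 CPM. These 3 were 1.5-fold higher in resistant TPF than in FaDu cinobufotalin, as were 36.7% of all genes, and 1 of them (FKBP5) with TMM factors, as were 9.53% of all genes.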

How the data were processed

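The authors deposited unnormalized UMI counts for every gene in every barcode. Cell Ranger 7.0 and hg38 are named in the submitters' processing notes, and 10x 3' chemistry in the labels. Gene annotation, strand and the treatment of intronic reads are not given in these sources. All 58735 gene IDs were found in GENCODE 29. Barcodes with at least 1000 UMIs, 500 genes and no more than 20% mitochondrial UMIs were retained. Doublets were not removed, and free RNA was not corrected for. Library sums of UMIs were put on the CPM scale, with exact Poisson intervals for levels, Clopper-Pearson intervals for shares and ratios, and a floor of 3 UMIs. Intervals cover counting error only. No test was made, since each group had 1 library.

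Genes counted had a mean of at least 5 CPM. Cells were thinned to 5000 UMIs for shares, correlations (log1p counts) and phases, which came from 42 S and 52 of 54 G2M genes over all libraries. The genes, lists and alternatives were chosen with earlier results of these data known. Named genes were the members, other metallothioneins with any UMI, up to 4 genes per list and pair with the largest ratio, and the 8 most like the sum over cells. The bins of cells were chosen after the data were seen and serve description only. The code for ratios and intervals was run on simulated Poisson counts, which have only the counting error that the intervals assume. That run cannot show how the intervals hold where UMIs cluster within cells. Python 3.11.15, numpy 2.4.6, scipy 1.17.1, pandas 2.3.3, scanpy 1.11.5, anndata 0.12.19 and edgeR 4.0.16 (TMM factors 1.12, 1.15 and 0.778 in the order of the libraries in the report) in R 4.3.3 were used.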

Additional observations from a re-analysis of the deposited data

How the results depend on the processing

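No paired analysis was possible because each group had 1 library and the labels give no replicate numbers. The order below is resistant TPF cinobufotalin over resistant TPF, resistant TPF over FaDu cinobufotalin and resistant TPF cinobufotalin over FaDu cinobufotalin, where the log2 ratio of the metallothionein sum was 0.24, -0.70 and -0.45. All 36 alternatives for the sum kept its sign, and 33 moved it by more than counting error: 0.25, -0.72 and -0.46 with all deposited barcodes; 0.25 and -0.70 in the first 2 pairs with at most 10% mitochondrial UMIs; 0.23 and -0.46 in the first and last with at least 2000 genes per cell. It was 0.23, -0.68 and -0.45 without cells over 2 times the median UMIs, 0.25, -0.77 and -0.52 with totals without mitochondrial and ribosomal protein genes, and 0.26, -0.73 and -0.47 with equal weight per cell. It was 0.26 and -0.72 in the first 2 pairs in cells thinned to 5000 UMIs, 0.23, -0.68 and -0.45 in S and 0.22, -0.61 and -0.39 in G2M. The widest range came from TMM factors, at 0.29, -1.27 and -0.97, cells called G1, at 0.48, -1.18 and -0.70, and cells from 0.3% to 1% MALAT1, at 0.14, -0.53 and -0.39. Counting error takes each UMI as independent and leaves out the spread between cells, so 33 is not a count of moves beyond that spread.

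The number of members 1.5-fold apart was 0, 2 and 1. It was 1, 4 and 3 with TMM factors and 1, 3 and 2 in cells called G1. In the pairs with FaDu cinobufotalin it was 1 and 0 at 0.3% to 1% MALAT1. At 2-fold in place of 1.5-fold it was 0 in all pairs, where 0.291% and 0.785% of all genes were lower in the pairs with FaDu cinobufotalin. Most of the 45 alternatives left it as it was. In cells called G1 0.94% of all genes were higher in the first pair. There 4.1% and 4.81% were lower in the pairs with FaDu cinobufotalin, and 2.75% and 4.44% at 0.3% to 1% MALAT1. Single members changed sign under at least 1 alternative: MT1F between the resistant libraries (-0.02 in thinned cells), MTF1 in all 3 pairs, SLC30A1 in both pairs with FaDu cinobufotalin and MT1X in the last. MTF1 stood at 0.22 in the second pair, with an interval that leaves out 0, and at -0.35 with TMM factors. The causes of these moves were not tested. Shares of cells and correlations depend on the depth cells were thinned to. In resistant TPF cinobufotalin, resistant TPF and FaDu cinobufotalin, MT1X was detected in 51.5%, 40.0% and 50.4% of cells at 2000 UMIs and 92.7%, 85.7% and 92.6% at 10000, and MT1E in 57.3%, 50.2% and 72.5% and in 91.5%, 88.8% and 96.6%, lowest in resistant TPF each time. The r of MT1E with MT1X was 0.43, 0.41 and 0.43 at 10000 UMIs. MT1G and MT1M cannot be compared at these counts.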
